A study of Mus musculus with 8 samples.

Results

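Mouse embryonic fibroblasts (MEFs) are connective tissue cells grown from dissected embryos, here of day 13.5 and of strain C57BL/6J. The response described here is that of wild type (WT) MEFs to 16 h in medium without glutamine, set against WT MEFs at 0 h, with 2 arrays in each group. Its members were chosen by level alone: every row of the deposited table whose mean reached 3 on the log2 scale in at least 1 of these 2 WT groups. There were 11906 such rows out of 18132, and the rule used no difference between the groups. The series also holds untreated and starved MEFs of *Btg1*-/- mice, with 2 arrays each. The methods give dialyzed serum for the glutamine-free medium and heat-inactivated serum for the usual one, so glutamine and the kind of serum cannot be told apart in any comparison below. No array holds cells kept for 16 h in medium with glutamine. Time in culture and the change of medium therefore cannot be told apart from the loss of glutamine either, and "starvation" below stands for all of these together. At the edge of the rule, *BC003331* and *Txndc8* were just inside, with higher group means of 3.0 and 3.001, and *Jup* was just outside, with a higher mean that rounds to 3.0.

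Glutamine supplies nitrogen for nucleotides, asparagine and other amino acids, and its carbon enters the tricarboxylic acid (TCA) cycle as glutamate and alpha-ketoglutarate. When an amino acid is short, uncharged tRNA activates the kinase GCN2, which phosphorylates the translation factor eIF2alpha. General translation then slows while the transcription factor ATF4 is made, and ATF4 acts on genes of amino acid import, amino acid synthesis and tRNA charging, a program called the amino acid response. Amino acid shortage also lowers the activity of the growth kinase mTORC1, which holds the lysosomal regulators TFEB and TFE3 in the cytoplasm when nutrients are plentiful.

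Expression was read on Illumina MouseRef-8 v2 arrays, and the values are log2 levels, 1 per named gene and array. Replicates correlated across genes with r = 0.984 in untreated and 0.987 in starved WT cells, against 0.957 to 0.963 between the groups. The labels call the replicates biological duplicates. The sex-linked transcripts told the replicate numbers apart: Y-linked *Eif2s3y* stood at 9.81 (untreated) and 9.49 (starved) on the arrays numbered 2 but at 2.79 and 3.25 on those numbered 1, where *Xist* stood at 7.08 and 7.98 against 2.87 and 3.48. Of 12 fibroblast markers, 11 were on the array and all 11 reached 3, with medians of 9.65 and 9.53 in untreated and 8.57 and 8.98 in starved cells. Of these 11, 8 were lower after starvation and 0 higher, and in these bulk samples fewer cells of a type and less RNA per cell cannot be told apart. Of 13 macrophage markers on the array 12 reached 3, all but *Ptprc*, and 0 of the 13 were called. Their medians were 5.81 and 5.53 before and 6.06 and 5.21 after starvation. Median levels of endothelial, neural, skeletal muscle, red cell and adipocyte markers were between 2.39 and 3.96, and those of epithelial markers between 2.86 and 4.45. Cartilage and bone markers had medians of 3.77 and 5.08 before and 3.02 and 3.27 after starvation. Calls in these lists were all lower, with 2 skeletal muscle markers and 1 each of the epithelial, neural and cartilage and bone lists, and the part of such cells in the results below was not tested.

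The transcriptome of starved cells differed from that of untreated cells broadly and almost evenly in both directions. With the linear model of limma, 3138 of the 11906 rows, which stand for 11894 named genes and are spoken of as genes below (26.4%), passed an adjusted p of 0.05 and are referred to as called. Of these, 1667 (14.0%) were higher and 1471 (12.4%) lower in starved cells, and the arrays of the groups did not overlap for any of them. Where both group means were 3 or more, 1582 of 10219 rows (15.5%) were higher and 1401 (13.7%) lower. The other 85 higher and 70 lower calls belong to rows that passed the level rule only through the group in which they were high. Differences are given as starved minus untreated on the log2 scale, and pairs of levels are those of replicates 1 and 2. Median log2 fold changes were 0.83 among genes called higher and -0.97 among those called lower, against 0.035 over all genes. At an absolute log2 fold change of at least 2, there were 106 genes higher and 180 lower. The rule of the methods, a fold change (FC) of at least 3 between group means, kept 216 genes higher (1.81%) and 331 lower (2.78%). Of these 547 genes, 21 were not called.

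Brighter genes were called more often up to levels of 10 to 12. The share called higher rose from 8.73% at mean levels of 4 to 6 to 26.4% at 10 to 12, and the share called lower from 8.34% to 22.0%, while the median SD between replicates fell from 0.225 to 0.073. At levels of 12 to 16 the shares were 21.2% and 22.4%. A dim gene therefore needed a larger change to be called. In 808 rows only the starved mean reached 3 and in 879 only the untreated one, and a called gene of this kind is given as a fold of at least its bright mean over the level of 3. The arrays of the groups did not overlap for 65.4% of all rows, so that property alone says little about a gene. Genes named as called kept the call when any single WT array was left out, except where a loss is stated. Counts of called list members without 1 of the WT arrays are given as the lowest to the highest of the 4 fits wherever they differ by more than 1.5 times from a count of 4 or more.

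**Figure D1:**
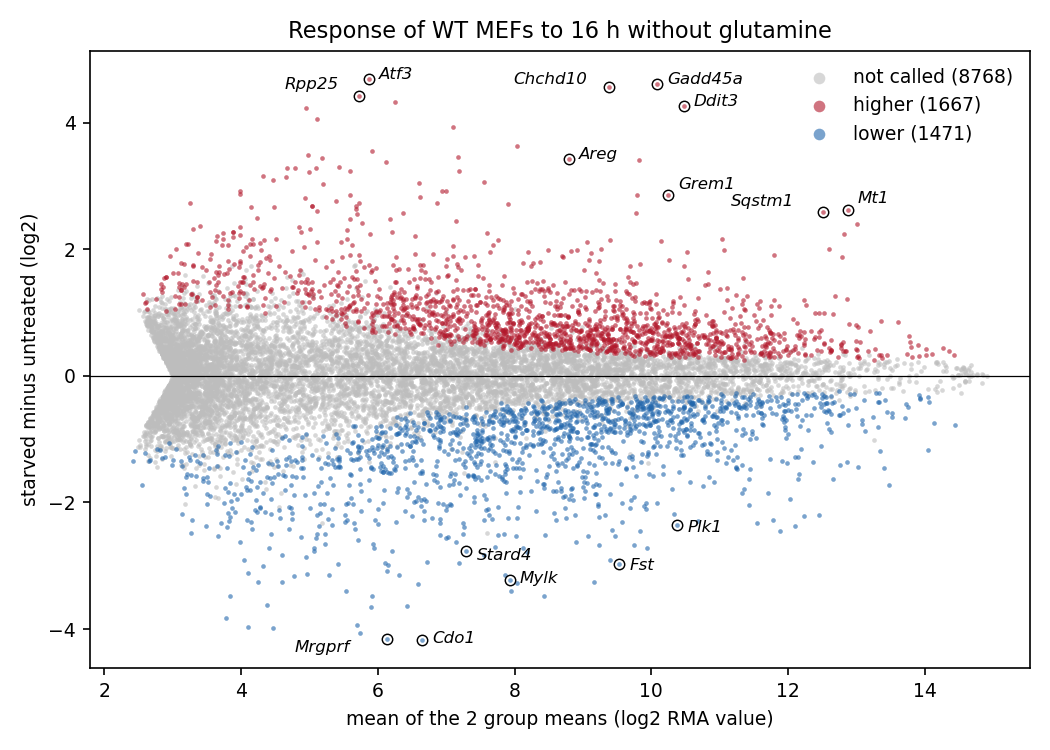
Mean of the group means (log2 RMA value, horizontal axis) against the difference of starved minus untreated WT cells (log2, vertical axis), with 1 point for each of 11906 rows. The 1667 red points were called higher and the 1471 blue points lower by limma, and ringed points are genes named in the text. Grey points, not called, spread more widely at low levels.

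The largest changes joined stress regulators with genes that have no such label. *Atf3*, a stress-induced transcription factor, went from 4.61 and 2.44 to 8.57 and 7.87, a log2 fold change of 4.69 (standard error 0.59, adjusted p = 0.00042 from limma). *Gadd45a*, a growth arrest and DNA damage gene, went from 8.22 and 7.35 to 12.54 and 12.25, a difference of 4.61 (standard error 0.30, adjusted p = 1.87e-05 from limma). *Chchd10*, a small protein of the mitochondrial intermembrane space, went from 7.35 and 6.86 to 11.70 and 11.64. The untreated arrays of *Atf3* lay farther apart than those of the other 2 genes, and its standard error is larger. *Rpp25*, a subunit of RNase P and RNase MRP, rose by 4.42, and *Tenm4*, a transmembrane teneurin, by 4.33. *Ddit3*, which encodes the stress factor CHOP, went from 8.65 and 8.03 to 12.65 and 12.57. Next came *Cdsn*, a desmosome protein of skin that was below 3 in untreated cells and at least 16.8-fold higher in starved ones, then *Taf7l* (4.05), *Fam110c* (3.93), *Cxadr* (3.63), a cell adhesion molecule also used as a receptor by coxsackieviruses and adenoviruses, *Enox1* (3.56) and *Cyb5r2* (3.48).

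In the other direction, *Cdo1*, which oxidises cysteine to cysteine sulfinate, went from 8.95 and 8.52 to 4.28 and 4.85, a difference of -4.17 (standard error 0.26, adjusted p = 1.52e-05 from limma). *Mrgprf*, an orphan receptor, went from 8.25 and 8.17 to 3.50 and 4.59. *Ppbp*, a chemokine precursor, went from 7.37 and 8.17 to 3.22 and 4.18. Every starved array of these 3 genes was at least 3 log2 units below every untreated one. *Angptl1* was at least 11.0-fold lower in starved cells, *Ccl17* at least 8.48-fold and *Angptl7* at least 6.44-fold. The call of *Ccl17* was lost without WT untreated replicate 1 (adjusted p = 0.0511 from limma). The rest of the 12 were *Chst12* (-3.94), a sulfotransferase of chondroitin chains, *Rspo2* (-3.65), *Mrvi1* (-3.63), which is known from smooth muscle, *Serpina3g* (-3.48), *LOC100044702*, at least 9.18-fold lower, and *Ercc6l*, a DNA translocase of mitosis, at least 6.00-fold lower.

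Of 14 measured transcription factors of the stress response, 9 were called higher and 1 lower, with a median log2 fold change of 0.93. *Atf4* itself went from 11.73 and 11.53 to 12.69 and 12.37, a difference of 0.90 (standard error 0.11, adjusted p = 0.000486 from limma). *Nupr1*, a small stress-induced nuclear protein, went from 11.76 and 11.44 to 13.67 and 13.54. *Atf5*, *Cebpb*, *Mafg* and *Nfe2l1* rose by 0.99, 0.95, 0.97 and 0.77, as did the dimmer *Cebpa* by 1.33, whose call was lost without untreated replicate 2 (adjusted p up to 0.0771 from limma) or without starved replicate 1 or 2. *Xbp1*, a factor of the unfolded protein response, was lower, at 12.25 and 12.19 against 11.60 and 11.72, and lost its call without starved replicate 1 (adjusted p = 0.050 from limma). *Jdp2* and *Nfe2l2*, which encodes NRF2, were not called, at 0.16 and 0.27.

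Genes known to act downstream of ATF4 formed the list with the highest share called higher among lists of 18 or more genes. Of 19 measured effectors 15 were higher and 0 lower, with a median of 1.16 (14 to 16 higher without 1 of the WT arrays). *Soat2*, which esterifies cholesterol, went from 3.0 and 3.89 to 6.89 and 6.57. *Fgf21*, a secreted metabolic hormone, went from 3.83 and 2.46 to 6.85 and 6.00, and *Trib3*, a pseudokinase that restrains ATF4 and CHOP, from 6.05 and 5.10 to 8.82 and 8.80. Both starved arrays of each exceeded both untreated ones by at least 2. *Adm2*, a secreted peptide related to adrenomedullin, was below 3 without starvation and at least 5.37-fold higher with it. *Ppp1r15a*, the eIF2alpha phosphatase subunit that ends the translation block, rose by 2.85, *Vldlr* by 2.14 and *Chac1*, which degrades glutathione, by 1.91. *Herpud1* (0.27) and *Tnfrsf10b* (-0.06), brightest of those not called, are also known from stress of the endoplasmic reticulum (ER).

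**Figure D2:**
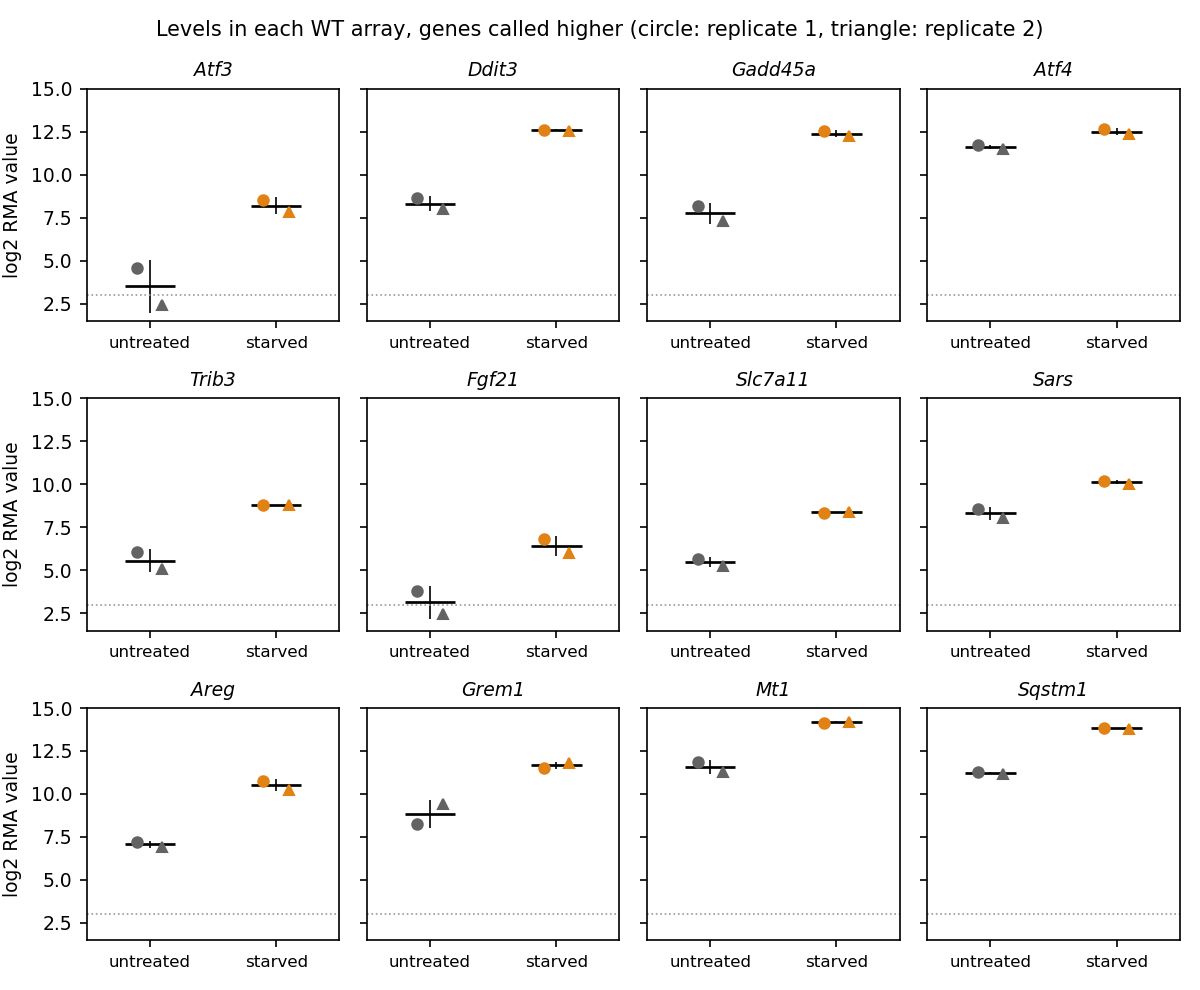
Level of 12 genes called higher (log2 RMA value, vertical axis) in untreated and starved WT cells, with circles for replicate 1, triangles for replicate 2, horizontal lines for the mean and vertical lines for ± 1 SD (n = 2); the dotted line is the level of 3. In all 12 panels both starved arrays lie above both untreated ones, and *Atf3* and *Fgf21* have an untreated array below 3.

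ATF4 binds composite sites that join part of a C/EBP site to part of an ATF site. Promoter windows of 300 bases, 250 before to 50 after a transcription start in RefSeq (GRCm38.p6), were available for 8965 of 11894 genes, and the letters TGATGNAA were searched on both strands. They stood in 3.97% of all 32851 windows of 27025 genes, in 2.99% of windows of genes called higher and in 1.42% of those called lower. Among the effectors called higher, 4 of 16 windows (25.0%) held them, as did 4 of 7 windows (57.1%) of cytosolic tRNA synthetases called higher and 4 of 13 (30.8%) of amino acid carriers called higher. The effectors were listed for being known to act downstream of ATF4, so their share does not test a link to ATF4. Among called genes of these lists and of the stress transcription factors that held the letters, *Atf3* and *Fgf21* changed most. *Atf3* is one of the stress transcription factors, so its window is not in the list counts above. The windows of *Atf3* (chr1:191183284-191183583, minus strand) and *Fgf21* (chr7:45615441-45615740, minus strand) are shown 5′ to 3′ with the match in capitals, here in its reverse complement and starting at -110 and -139.
Atf3: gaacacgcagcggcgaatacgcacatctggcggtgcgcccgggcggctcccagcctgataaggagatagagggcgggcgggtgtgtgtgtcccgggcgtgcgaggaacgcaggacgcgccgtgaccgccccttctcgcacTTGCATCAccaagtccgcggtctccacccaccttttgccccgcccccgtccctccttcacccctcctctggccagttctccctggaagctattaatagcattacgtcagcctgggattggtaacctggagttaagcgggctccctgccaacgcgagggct
Fgf21: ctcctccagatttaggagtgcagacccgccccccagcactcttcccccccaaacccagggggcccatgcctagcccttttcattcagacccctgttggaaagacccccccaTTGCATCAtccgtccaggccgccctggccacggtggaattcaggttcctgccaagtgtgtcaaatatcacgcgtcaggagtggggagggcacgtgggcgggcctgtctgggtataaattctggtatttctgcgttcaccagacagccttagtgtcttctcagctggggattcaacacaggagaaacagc

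Transcripts of several amino acid carriers were higher. Of 29 measured carrier genes, 9 were higher and 2 lower (median 0.40). *Slc7a11*, the cystine-glutamate exchanger, went from 5.68 and 5.28 to 8.36 and 8.42, and *Slc6a9*, the glycine transporter GLYT1, from 8.78 and 8.21 to 11.06 and 11.09. *Slc7a3*, which imports arginine and lysine, rose by 2.05. *Slc1a5*, the main glutamine carrier ASCT2, went from 3.46 and 3.54 to 5.66 and 5.01, and lost its call without starved replicate 1 (adjusted p = 0.0598 from limma). The glutamate carrier *Slc1a3* was lower by 0.97, and *Slc38a2*, a glutamine carrier at a level near 11, was not called at 0.17. Starved cells held more transcript of an exchanger that exports glutamate and less of a carrier that takes it up.

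Enzymes of amino acid and one-carbon synthesis rose or did not pass the test. Of 22 measured, 8 were higher and 0 lower (median 0.48). *Aldh1l2* and *Shmt2*, enzymes of mitochondrial folate metabolism, rose by 1.56 and 1.37. *Asns*, which makes asparagine from aspartate with the nitrogen of glutamine, went from 10.96 and 10.57 to 11.99 and 12.06. *Gpt2*, a mitochondrial alanine transaminase that uses glutamate, went from 7.91 and 7.80 to 9.23 and 9.13. *Got2*, an abundant aspartate transaminase, measured 12.91 and 13.00 without and 13.02 and 12.93 with starvation, a difference of 0.02 with an adjusted p of 0.891.

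Among 14 enzymes that make or use glutamine and glutamate, 4 were called higher and *Oat* alone lower, with 2 higher in each fit without 1 of the WT arrays. *Oat*, the ornithine aminotransferase that links ornithine and glutamate semialdehyde, went from 12.73 and 12.74 to 11.44 and 11.48, a difference of -1.28 (standard error 0.08, adjusted p = 1.8e-05 from limma). *Gfpt2*, which uses glutamine to make glucosamine-6-phosphate, was higher by 0.77. The calls of *Gclc* (1.00) and *Gclm* (0.72), the subunits of glutamate-cysteine ligase, were each lost without any 1 of the 4 WT arrays (adjusted p from 0.111 to 0.175 and from 0.0847 to 0.124 from limma). *Glul*, glutamine synthetase, measured 2.62 and 2.99 without and 1.89 and 2.24 with starvation, below the level of 3 and therefore outside the rule. *Ctps* and *Ppat*, which take nitrogen from glutamine for nucleotides, measured -0.19 and -0.18 and were not called.

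Of 20 cytosolic aminoacyl-tRNA synthetases, which charge tRNAs with amino acids, 11 were higher and 1 lower (median 0.48). *Sars*, for serine, went from 8.60 and 8.05 to 10.22 and 10.06. *Aars*, for alanine, rose by 1.26 and *Wars*, for tryptophan, by 1.20. *Qars*, which charges the glutamine tRNA, was at 11.48 and 11.58 without and 11.66 and 11.72 with starvation, not called at 0.16. The 1 lower gene, *Kars*, for lysine, fell by 0.48, and lost its call without untreated replicate 1 or starved replicate 1 or 2 (adjusted p up to 0.147 from limma). Of 13 mitochondrial synthetases 4 were higher and 0 lower (2 to 4 higher without 1 of the WT arrays), with *Fars2*, for phenylalanine, at 1.00.

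Among genes of the lysosome, the share called higher was 12 of 19 for the proton pump and 11 of 36 for the other proteins. The V-ATPase pumps protons into lysosomes and is built of a cytosolic V1 part and a membrane V0 part. Of 19 measured subunits and accessory genes, 12 were higher and 0 lower, with a median of 0.75 (11 to 12 higher without 1 of the WT arrays). *Atp6v1b2*, of the catalytic head, went from 10.39 and 10.45 to 11.83 and 11.78, and *Atp6v1c1*, of the regulatory stalk, from 8.42 and 8.54 to 9.89 and 9.71. *Atp6ap2*, an accessory membrane protein, went from 8.60 and 8.43 to 9.96 and 9.79. *Atp6v0e2*, an isoform of a membrane subunit, rose by 1.37. Increases between 0.49 and 1.24 were called for *Atp6v0b*, *Atp6v1d*, *Atp6v1e1*, *Atp6v0d1*, *Atp6v1h*, *Atp6v1g1*, *Atp6v1a* and *Atp6ap1*. Among them *Atp6v1a* lost the call without untreated replicate 1 or starved replicate 1 or 2 (adjusted p up to 0.0927 from limma).

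The members not called fell in 2 kinds by level. *Atp6v1b1*, *Atp6v1c2*, *Atp6v1e2* and *Atp6v1g2* were dim, with array values of 2.08 to 4.82, and these are isoforms known from kidney, testis, brain and other specialised tissues. *Atp6v0a4*, *Atp6v0d2* and *Atp6v1g3* were below 3 in both groups and were not tested. *Atp6v0a1*, *Atp6v0a2* and *Atp6v0e* were well measured, at levels of 6.25 to 12.64, and differed by 0.24, 0.16 and 0.19. The 95% interval of *Atp6v0a2* ran from -0.09 to 0.41.

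**Figure D3:**
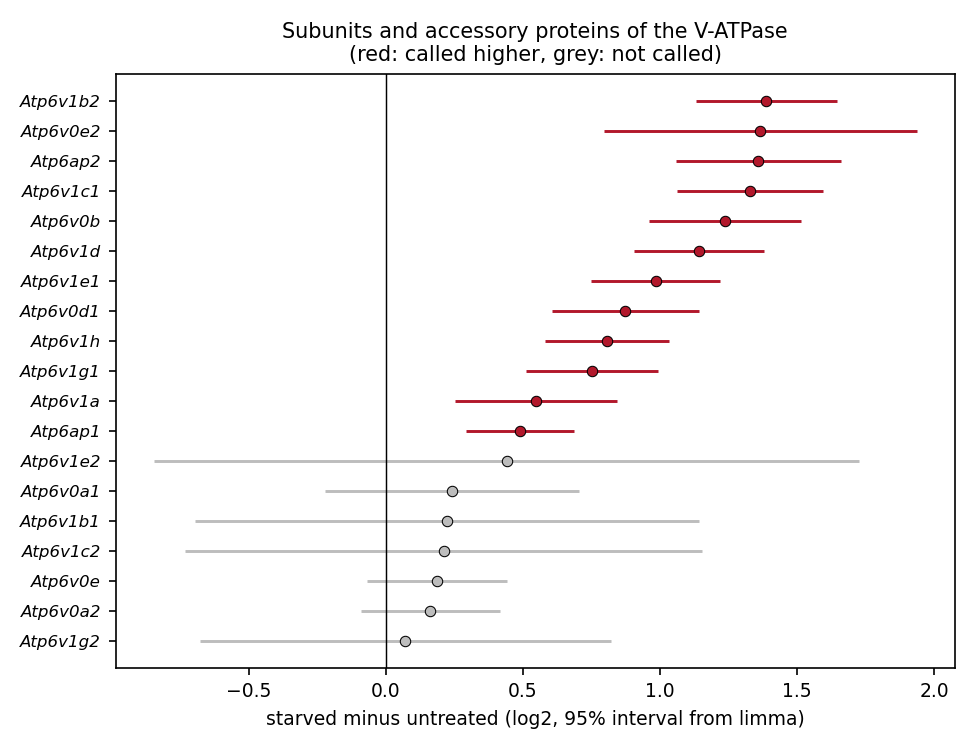
Difference of starved minus untreated WT cells (log2, horizontal axis) for 19 measured V-ATPase genes, with 95% intervals from limma and 1 row for each gene. The 12 red genes were called higher, from *Atp6ap1* at 0.49 to *Atp6v1b2* at 1.39, and the widest intervals among the 7 grey genes belong to dim isoforms.

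Of 36 lysosomal hydrolases and membrane proteins, 11 were higher and 0 lower (median 0.41, 7 to 10 higher without 1 of the WT arrays). *Neu1*, which removes sialic acid, went from 9.01 and 9.02 to 10.48 and 10.43. *Mcoln1*, the lysosomal calcium channel, went from 6.49 and 6.77 to 7.66 and 7.50, and *Lamp1*, a major membrane protein, from 12.13 and 12.13 to 12.88 and 12.82. *Cd63* and *Npc2*, both abundant, were not called at 0.05. *Tfeb* and *Tfe3*, which encode the regulators named above and were looked up after the values were seen, were not called at -0.16 and 0.14. Of 31 autophagy genes 12 were higher and 2 lower (median 0.24, 5 to 8 higher without 1 of the WT arrays). *Sqstm1*, the cargo receptor p62, went from 11.28 and 11.16 to 13.85 and 13.78, *Optn*, another receptor, rose by 1.25 and *Gabarapl1*, of the family that coats autophagosomes, by 1.14, while *Wipi1* fell by 0.78.

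TFEB and TFE3 bind the CLEAR box, here searched as TCACGTGA on both strands, an 8-letter palindrome that contains the E-box CACGTG. It stood in 0.974% of all promoter windows, in 3.72% of windows of genes called higher and in 1.13% of those called lower. In the V-ATPase list 3 of 15 windows held it (20.0%), falling to 6.67% in the 250 bases before the start alone, and in the list of hydrolases and membrane proteins 4 of 35 (11.4%). The windows of *Mcoln1* (chr8:3500269-3500568, plus strand) and *Atp6v0d1* (chr8:105566015-105566314, minus strand), called members of either list, carry the match, in capitals, at -46 and -4.
Mcoln1: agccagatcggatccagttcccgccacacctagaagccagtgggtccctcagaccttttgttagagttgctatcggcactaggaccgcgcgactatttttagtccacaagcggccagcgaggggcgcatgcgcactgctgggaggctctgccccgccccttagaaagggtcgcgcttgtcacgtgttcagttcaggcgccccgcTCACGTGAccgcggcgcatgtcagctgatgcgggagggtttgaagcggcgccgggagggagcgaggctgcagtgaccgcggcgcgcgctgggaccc
Atp6v0d1: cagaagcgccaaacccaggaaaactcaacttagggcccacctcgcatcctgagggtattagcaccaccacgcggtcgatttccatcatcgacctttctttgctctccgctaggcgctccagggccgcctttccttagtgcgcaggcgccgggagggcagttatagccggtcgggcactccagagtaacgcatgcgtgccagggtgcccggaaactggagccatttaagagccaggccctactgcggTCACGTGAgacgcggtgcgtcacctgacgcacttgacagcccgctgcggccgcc

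Genes that build ribosomes were higher or not called. Of 43 genes of ribosome biogenesis and RNA polymerase I, 14 were higher and 0 lower (median 0.35, 6 to 11 higher without 1 of the WT arrays). *Imp3*, of the complex that processes small-subunit rRNA, went from 11.67 and 11.76 to 12.94 and 12.72, and *Pes1*, of large-subunit maturation, from 9.43 and 9.07 to 10.27 and 10.19. *Npm1*, an abundant nucleolar protein, was at -0.02 and not called. Of 71 mitochondrial ribosomal proteins, 22 were higher and 7 lower (median 0.16, 12 to 14 and 3 to 5 without 1 of the WT arrays), among them *Mrpl24* at 0.92 and *Mrpl17* at -0.56. Of 56 cytosolic ribosomal proteins 8 were higher (14.3%) and 0 lower (4 to 7 higher without 1 of the WT arrays), with *Rps6* at 0.53. Over all genes the shares were 14.0% higher and 12.4% lower. At levels of 12 to 16, where most cytosolic ribosomal proteins stood, they were 21.2% and 22.4%. At levels of 10 to 12, where many mitochondrial ones stood, they were 26.4% and 22.0%, against 31.0% and 9.9% in that list. Among 47 rows of translation initiation factors and eIF2 kinases, of which 3 stand under an older name of a gene with another row and 1 of those 3 was called higher, 11 were higher and 5 lower (7 to 10 and 3 to 4 without 1 of the WT arrays): *Eif4ebp1*, the translation repressor 4E-BP1, rose by 0.82, *Eif2s2*, the beta subunit of eIF2, fell by 0.93 and *Eif3j1* fell by 1.89.

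Antioxidant genes were called higher more often than lower. Of 43 genes of the NRF2, glutathione and thioredoxin systems 16 were higher and 6 lower (median 0.28, 9 to 11 and 3 to 5 without 1 of the WT arrays). These shares were 37.2% and 14.0%, against 14.0% higher and 12.4% lower over all genes. *Hmox1*, which degrades heme, went from 8.91 and 9.24 to 11.16 and 11.27. *Gsta1*, a glutathione transferase, went from 3.42 and 2.73 to 6.36 and 6.09, and *Gsta2* was at least 3.64-fold higher, although transcripts of this family are alike enough that probes may share signal. *Gpx3*, *Gpx7* and *Gstm2* fell by 1.02, 0.87 and 0.84. Of 19 metallothionein and zinc transporter genes 3 were higher (15.8%) and 4 lower (21.1%), with a median of 0.10 and 1 to 2 lower without 1 of the WT arrays. *Mt1*, a metallothionein that binds zinc and copper, went from 11.84 and 11.30 to 14.15 and 14.21, and *Mt2* from 3.36 and 4.19 to 7.11 and 7.04. The 4 lower genes were the zinc transporters *Slc39a10* (-0.82), *Slc30a7* (-0.64), *Slc39a1* (-0.60) and *Slc39a13* (-0.58). *Slc39a10* and *Slc39a1* lost the call without any 1 of the WT arrays (adjusted p up to 0.212 and 0.223 from limma), and *Slc39a13* without untreated replicate 2 or starved replicate 1 (up to 0.0864). Peroxisome genes were higher in 6 of 20 cases and lower in 1 (median 0.25): *Pex26*, which anchors the import machinery, went from 3.57 and 4.14 to 6.20 and 6.14, and *Pex11a*, which takes part in peroxisome division, rose by 1.65.

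Genes of cell division were lower. Of 36 measured genes of mitosis 32 were lower and 0 higher, with a median of -1.50 (26 to 27 lower without 1 of the WT arrays). *Foxm1*, a transcription factor of the late cell cycle, went from 8.11 and 8.23 to 5.62 and 5.68. *Plk1*, a mitotic kinase, went from 11.58 and 11.55 to 9.36 and 9.04, and *Smc2*, of condensin, was at least 3.90-fold lower. The 4 not called were *Ndc80* (-0.87), *Hmmr* (-0.20), *Pttg1* (0.04) and *Ect2* (0.63). Among 24 kinesins, motor proteins of microtubules, 9 were lower and 1 higher, and the mitotic members *Kif11*, *Kif2c* and *Kif4* fell by 2.27, 2.25 and 2.14. *Kif3a*, a transport kinesin, was not called at 0.32.

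Cell cycle genes often carry a homology region (CHR), searched here as TTTGAA on both strands. These 6 letters stood in 17.9% of all windows, in 14.6% of windows of genes called lower and in 19 of 27 windows (70.4%) of mitosis genes called lower. In the 250 bases before the start alone the last share was 37.0%. The window of *Plk1* (chr7:122159185-122159484, plus strand), the called member of largest change with a match, holds it after the start, at position 30.
Plk1: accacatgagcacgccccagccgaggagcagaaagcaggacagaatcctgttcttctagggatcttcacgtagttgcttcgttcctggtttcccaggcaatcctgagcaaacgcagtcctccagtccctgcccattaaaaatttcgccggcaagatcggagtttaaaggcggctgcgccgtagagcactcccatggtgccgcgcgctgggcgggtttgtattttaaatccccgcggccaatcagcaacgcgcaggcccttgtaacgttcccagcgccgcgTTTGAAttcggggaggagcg

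Of 32 replication genes 13 were lower and 1 higher (median -0.55, 9 to 10 lower without 1 of the WT arrays). *Prim1*, the primase subunit, was at least 4.92-fold lower and *Mcm5*, of the replicative helicase, fell by 1.20, while *Cdt1*, which loads that helicase, went from 10.21 and 10.29 to 11.34 and 10.90. Of 23 genes of purine and pyrimidine synthesis 5 were lower and 2 higher (3 to 4 and 0 without 1 of the WT arrays). *Tk1*, thymidine kinase, went from 7.65 and 7.53 to 4.65 and 4.62, and *Rrm2* and *Rrm1*, the subunits of ribonucleotide reductase, from 9.87 and 10.10 to 7.90 and 7.66 and from 11.04 and 11.14 to 10.04 and 9.64. *Tyms* and *Dut*, which make and protect the thymidylate pool, completed the 5, and *Tyms* (-1.05) lost its call without any 1 of the 4 WT arrays (adjusted p from 0.122 to 0.172 from limma). *Dut* (-0.78) lost it without untreated replicate 1 or 2 or starved replicate 1 (adjusted p up to 0.217). The base-forming enzymes *Ppat*, *Gart*, *Paics*, *Atic* and *Cad*, of which all but *Ppat* were picked after the values were seen, lay between -0.61 and -0.13 and were not called, and *Dhodh*, of the pyrimidine ring, was higher by 0.51, a call lost without any 1 of the 4 WT arrays (adjusted p from 0.0618 to 0.181 from limma).

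Histone genes moved in both directions. Of 58 rows 18 were lower and 8 higher (median -0.28, 3 to 5 higher without 1 of the WT arrays). The largest decreases were in H2A genes, with *H2ac21* from 9.60 and 9.36 to 6.96 and 6.57 and *H2ac15* from 13.13 and 13.08 to 10.88 and 10.42. *H4c8* rose by 1.19 and *H2bc14* by 0.77. Of the genes of a variant made outside S phase, *H3f3b* was not called at 0.33 and *H3f3a* was called lower at -0.805 (adjusted p = 0.00919 from limma). For *H3f3a*, fits without single WT arrays are not given here. Copies of replication histones are nearly identical, so these values are uncertain as to which copy they measure. Of 22 G1 cyclins and CDK inhibitors 6 were lower and 1 higher: *Ccne2* and *Ccne1*, the E cyclins of S phase entry, fell by 1.99 and 1.60, *Ccnd3* fell by 1.41, and *Cdkn1a*, the inhibitor p21, rose by 0.78. *Ccnd2* and *Ccnd1*, brighter D cyclins at levels of 12.46 to 13.07, measured -0.01 and -0.21 and were not called.

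Of 23 GADD45 genes and p53 targets 9 were higher and 3 lower (median 0.48). Beside *Gadd45a*, *Trp53inp1* rose by 1.34 and *Mdm2*, which degrades p53, by 1.19, from 11.44 and 11.84 to 12.86 and 12.79, while *Gadd45g* fell by 0.59 and the death receptor gene *Fas* by 1.28. *Ccng1* and *Phlda3*, further p53 targets at levels above 11, were not called at 0.11 and 0.18. Of 15 BCL2 family genes 2 were higher and 1 lower, against 14.0% higher and 12.4% lower over all genes. *Pmaip1* rose by 0.72, a call lost without starved replicate 2. *Bcl2l2* rose by 0.58, a call lost without untreated replicate 1 or starved replicate 1. *Bok* went from 9.09 and 9.45 to 7.34 and 7.78, and *Bax* and *Mcl1* were not called at 0.11 and 0.22.

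Genes of sterol synthesis were lower. Of 20 genes 16 were lower and 0 higher, with a median of -1.48. The arrays of the groups did not overlap for all 20, a property that 65.4% of all rows had in either direction. *Stard4*, a sterol carrier, went from 8.79 and 8.56 to 5.92 and 5.90. *Hsd17b7*, of the late pathway, went from 11.14 and 10.98 to 8.46 and 8.75. Of 13 fatty acid genes 8 were lower and 0 higher (median -0.63, 4 to 7 without 1 of the WT arrays), led by the desaturases *Fads2* and *Scd2* at -2.27 each. The sterol regulatory element, searched as TCACNCCAC, stood in 1.24% of all windows and in 0 of 14 windows of sterol genes called lower.

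Carbon metabolism changed at single enzymes. Of 24 genes of the TCA cycle 6 were lower and 1 higher (median -0.13, 3 to 5 lower without 1 of the WT arrays), and 3 isocitrate dehydrogenase genes accounted for the largest decreases. *Idh1*, the cytosolic enzyme that makes NADPH, went from 10.12 and 10.10 to 8.13 and 8.38. *Idh2*, its mitochondrial relative, went from 11.56 and 11.24 to 9.58 and 9.87, and *Idh3a*, of the NAD-linked enzyme, from 9.71 and 9.61 to 8.42 and 8.76. *Idh3b*, of the same NAD-linked enzyme, was not called at 0.26, and *Pdhb*, of pyruvate dehydrogenase, rose by 1.02. Of 26 glycolysis genes 5 were lower and 1 higher (3 lower without 1 of the WT arrays): *Eno3* fell by 1.95 and *Eno2* rose by 1.74, enolases known from muscle and from neurons, while *Gapdh* and *Pkm* were not called at -0.19 and -0.23. Of 82 genes of oxidative phosphorylation 14 were higher and 10 lower (5 to 8 and 1 to 3 without 1 of the WT arrays). These shares, 17.1% and 12.2%, were near the 14.0% and 12.4% over all genes. Most members of the list stood at levels of 10 or more, where genes were called more often. The shares of all genes were 26.4% higher and 22.0% lower at levels of 10 to 12. At levels of 12 to 16 they were 21.2% and 22.4%. Within this list *Cox6a2*, a cytochrome oxidase subunit known from heart and muscle, went from 6.31 and 4.60 to 8.84 and 8.97.

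**Figure D4:**
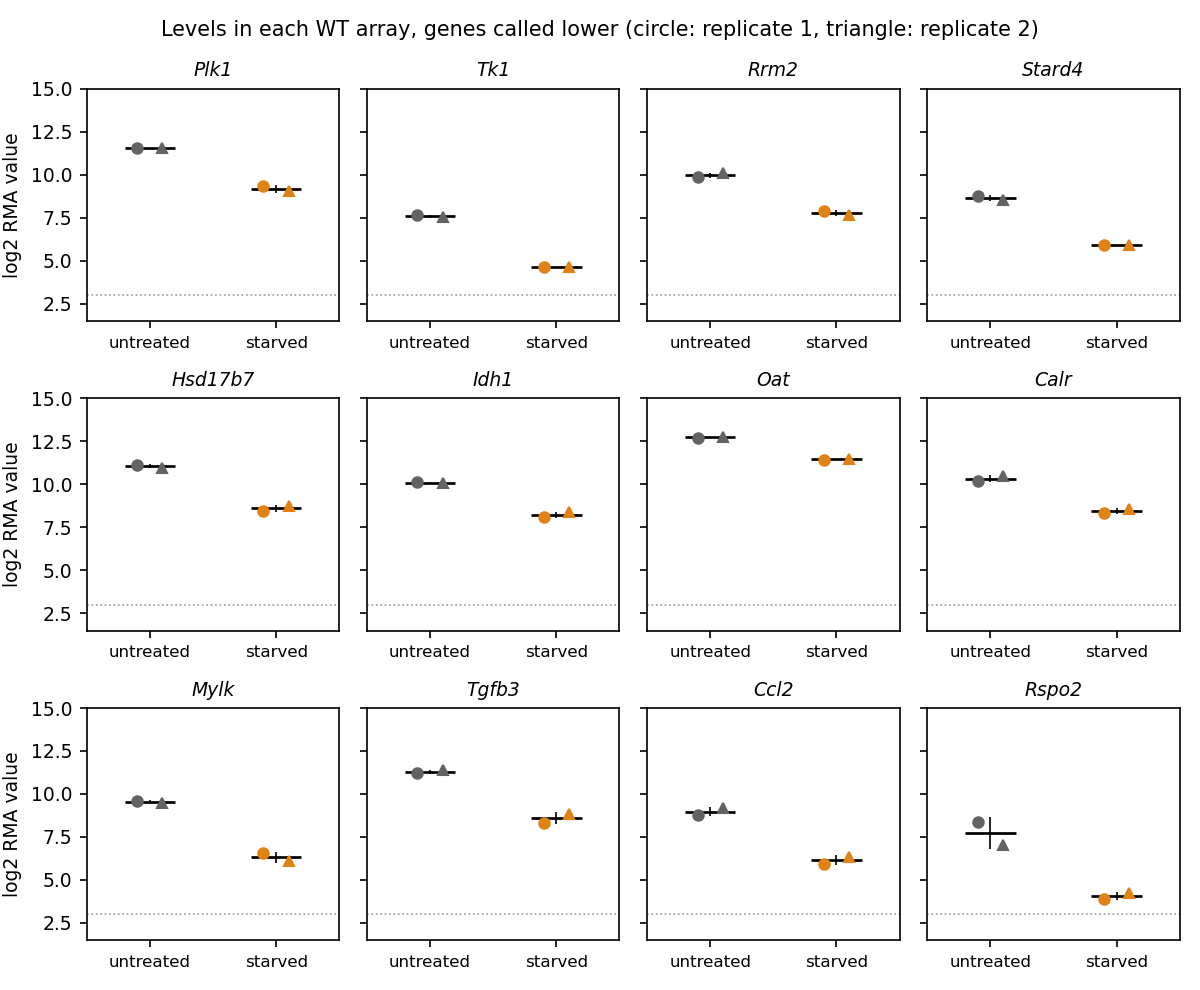
Level of 12 genes called lower (log2 RMA value, vertical axis) in untreated and starved WT cells, with circles for replicate 1, triangles for replicate 2, horizontal lines for the mean and vertical lines for ± 1 SD (n = 2); the dotted line is the level of 3. In all 12 panels both starved arrays lie below both untreated ones.

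Of 24 chaperones and genes of ER-associated degradation 12 were lower and 3 higher (median -0.48). *Calr*, the chaperone calreticulin, went from 10.19 and 10.47 to 8.34 and 8.58. *Pdia6*, a disulfide isomerase, fell by 1.59, *Creld2* by 1.04 and *Sec61b*, of the translocon, by 1.04, whereas *Dnajb9* rose by 1.15. *Sel1l* was not called at 0.45. Of 24 heat shock proteins 6 were lower and 2 higher: *Cryab*, *Hspa1a* and *Hspb1* fell by 1.92, 1.27 and 1.24, and the mitochondrial chaperone *Hspa9* went from 12.97 and 12.88 to 13.83 and 13.74.

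Contractile genes were lower. Of 20 contractile genes 18 were lower and 0 higher, with a median of -1.25 (14 to 15 lower without 1 of the WT arrays). *Mylk*, myosin light chain kinase, went from 9.60 and 9.48 to 6.54 and 6.09. *Tagln*, an actin-binding protein of smooth muscle, went from 11.90 and 11.77 to 9.39 and 9.69, and *Lmod1*, which nucleates actin filaments, from 8.08 and 8.52 to 5.28 and 6.24. *Myh9*, a nonmuscle myosin, was not called at -0.32. The CArG box, the site of serum response factor, stood in 1.63% of all windows on either strand, in 2.69% of windows of genes called lower and in 4 of 16 windows (25.0%) of contractile genes called lower. The window of *Acta1* (chr8:123894726-123895025, minus strand), skeletal alpha-actin, which went from 9.77 and 10.27 to 7.95 and 8.62, carries it at -73, in capitals.
Acta1: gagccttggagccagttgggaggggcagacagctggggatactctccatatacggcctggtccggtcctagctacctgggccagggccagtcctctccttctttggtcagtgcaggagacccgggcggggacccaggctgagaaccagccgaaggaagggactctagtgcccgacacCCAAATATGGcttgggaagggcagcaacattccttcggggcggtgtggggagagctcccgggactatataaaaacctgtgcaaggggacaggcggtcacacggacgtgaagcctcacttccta

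Of 30 collagen chains 14 were lower and 0 higher (median -0.55). *Col3a1*, a fibrillar chain, went from 8.08 and 7.75 to 5.88 and 5.45, and *Col2a1*, known from cartilage, from 7.82 and 7.67 to 5.60 and 5.62. The basement membrane chains *Col4a2* and *Col4a5* were not called at -0.20 and 0.01. Enzymes that process collagen followed the chains in 12 of 21 cases, against 1 higher (median -0.75): *P4ha3* and *P4ha1*, prolyl hydroxylase subunits, fell by 1.33 and 1.07 and *Adamts2*, which trims procollagen, by 1.09, while the prolyl hydroxylase *P3h2* rose by 1.82. *Lox* and *Plod3*, at levels above 12, were not called at -0.19 and 0.06. A further list of 20 joined matricellular genes with other genes tied to the regulators YAP and SRF, *Yap1* and *Tead2* among them. Of these 20 genes 9 were lower and 0 higher. The matricellular *Ccn5* went from 11.03 and 10.55 to 7.14 and 7.92 and *Thbs1* was at -1.79, whereas *Ccn2* (CTGF) was not called at -0.27.

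Among 34 matrix proteases and inhibitors 9 were lower and 2 higher (6 to 8 and 0 to 1 without 1 of the WT arrays). *Plau*, urokinase, went from 8.88 and 9.18 to 6.72 and 6.84, and *Mmp23* and *Adamts4* fell by 1.95 and 1.75. *Timp1* and *Timp3* were not called at -0.22 and -0.01. Of 28 integrin, laminin and related genes 6 were lower and 0 higher (3 to 5 lower without 1 of the WT arrays), with *Itga5*, of the fibronectin receptor, at -2.08 and its partner *Itgb1* not called at -0.15.

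Secreted signals changed in several families, mostly downward. Of 42 genes of the TGF-beta and BMP pathway 14 were lower and 4 higher (median -0.27). *Tgfb3*, a ligand, went from 11.21 and 11.38 to 8.33 and 8.82, and *Fst*, which traps activin, from 11.19 and 10.84 to 8.28 and 7.81. *Gdf10* was at least 2.34-fold lower. *Grem1*, an antagonist of BMPs, moved the other way, from 8.24 and 9.39 to 11.53 and 11.81, with *Gdf15*, a stress-induced ligand, at 1.16 and *Tgif1* at 1.16. *Bmp4* was lower by 2.23, a call lost without untreated replicate 1 or starved replicate 2 (adjusted p up to 0.204 from limma). *Acvr1* and *Inhba* were not called at -0.08 and -0.39.

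Of 31 genes of the WNT pathway 11 were lower and 1 higher (median -0.63). *Rspo2*, which amplifies WNT signals, went from 8.38 and 7.06 to 3.91 and 4.23. The secreted antagonists *Sfrp1* and *Sfrp2* went from 7.93 and 7.37 to 4.94 and 3.42 and from 6.65 and 6.06 to 3.58 and 2.80, and *Dkk3*, a secreted protein of the dickkopf family, fell by 2.91. Both an enhancer and inhibitors of the pathway fell, and *Ctnnb1*, beta-catenin, was not called at 0.07. In the Notch pathway 3 of 15 genes were lower and 1 higher: *Nrarp* and *Hes1*, targets of Notch, fell by 2.25 and 1.13, and *Hes6* rose by 1.48. None of 8 measured Hedgehog genes was called by limma, with *Smo* at -0.28, and of 17 semaphorins and plexins 2 were lower, with *Sema3f* at -1.81.

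Chemokines were lower in 6 of 22 cases and higher in 2 (median -0.94). *Ccl2*, which attracts monocytes, went from 8.78 and 9.16 to 5.93 and 6.35. *Cxcl14* and *Cxcl1* fell by 2.51 and 2.28, *Ccl27a* rose by 1.10 and *Cxcl12*, at a level near 10, was not called at -0.23. Of 18 genes of the IL-6 family and STAT3 signalling 5 were lower and 1 higher: *Il6* was at least 4.89-fold lower, *Socs3* and *Stat3* fell by 1.09 and 0.88, and *Il11* went from 7.20 and 7.17 to 8.54 and 8.07. In the TNF superfamily, 4 of 19 were lower and 3 higher. *Tnfsf11*, the osteoclast factor RANKL, went from 6.76 and 7.05 to 3.71 and 4.18, its decoy receptor *Tnfrsf11b* fell by 1.47, and *Cd40* went from 3.01 and 3.10 to 5.01 and 5.18. Of 28 interferon-inducible and MHC genes 1 was higher and 3 were lower, a smaller share than over all genes in each direction, with *B2m* not called at 0.18.

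Growth factor genes gave single large changes. *Areg*, a ligand of the EGF receptor, went from 7.22 and 6.93 to 10.76 and 10.26, a difference of 3.43 (standard error 0.19, adjusted p = 9.12e-06 from limma), while its relative *Hbegf* was not called at 0.04. In the IGF axis *Stc2*, which inhibits the protease that frees IGFs, rose by 2.45, the noncoding RNA *H19* fell by 1.85 and *Igf2*, the neighbour of *H19*, stayed at 14.63 and 14.78 against 14.78 and 14.64. The values of *Igf2* are near the top of the scale. Of 14 genes of the FGF axis 1, *Fgf21*, was higher and 2 were lower, with *Fgf5* at -2.49. Of 23 DUSP and Sprouty genes 4 were higher and 1 lower (1 to 3 higher without 1 of the WT arrays), with *Dusp18* at 2.28 and *Dusp1* not called at 0.02. Among immediate early genes 7 of 16 were lower and 0 higher (3 to 7 lower without 1 of the WT arrays), with *Zfp36* at -1.41 and *Egr1* not called at 0.11.

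Over all genes 14.0% were higher and 12.4% lower, and the shares of other lists lay on both sides of these. Of 14 clock genes 2 were higher and 1 lower. *Ciart*, a repressor of the clock, went from 5.52 and 4.66 to 7.74 and 7.57, and *Arntl* rose by 0.70. Of 31 HOX genes 2 were higher (6.5%) and 4 lower (12.9%), with 2 to 3 lower without 1 of the WT arrays. They were led by *Hoxb7* at 1.12 and *Hoxb2* at -0.91. Of 32 limb and position factors 1 was higher (3.1%) and 2 lower (6.2%). Of 36 proteasome subunits 4 were higher (11.1%) and 3 lower (8.3%), with 1 to 3 higher without 1 of the WT arrays. Among 35 rows of splicing factors, 9 were lower (25.7%) and 2 higher (5.7%), with 4 to 6 lower without 1 of the WT arrays. Of these rows 4 stand under an older name of a gene with another row, and 1 of those 4 was called lower. *Srsf6* went from 10.47 and 10.43 to 9.05 and 8.96. Of 20 nuclear pore genes 4 were lower (20.0%) and 1 higher (5.0%), with *Nup107* at -1.09.

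*Btg1*, the antiproliferative gene targeted in the other genotype of the series, was itself higher in starved WT cells, from 11.17 and 11.23 to 12.40 and 12.40, a difference of 1.20 (standard error 0.10, adjusted p = 4.99e-05 from limma). In the libraries labelled as knockout its row measured 9.36 and 9.16 without and 10.40 and 10.46 with starvation, lower than in WT cells but well above 3, and the difference of 1.16 was called as well (adjusted p = 0.000168 from limma). Which part of the transcript this row reads is not known here, so it does not check the knockout label. *Btg2*, its close relative, measured 2.62 and 1.98 without and 1.88 and 2.37 with starvation, below the rule. *Prmt1*, the arginine methyltransferase that BTG1 binds, fell by 0.39, a call lost without untreated replicate 1 or starved replicate 2 (adjusted p up to 0.127 from limma). *Prmt3*, a methyltransferase of a ribosomal protein, rose by 0.86 and *Prmt5* was not called at -0.12. Of 16 BTG, TOB and CCR4-NOT genes 2 were higher and 0 lower.

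**Figure D5:**
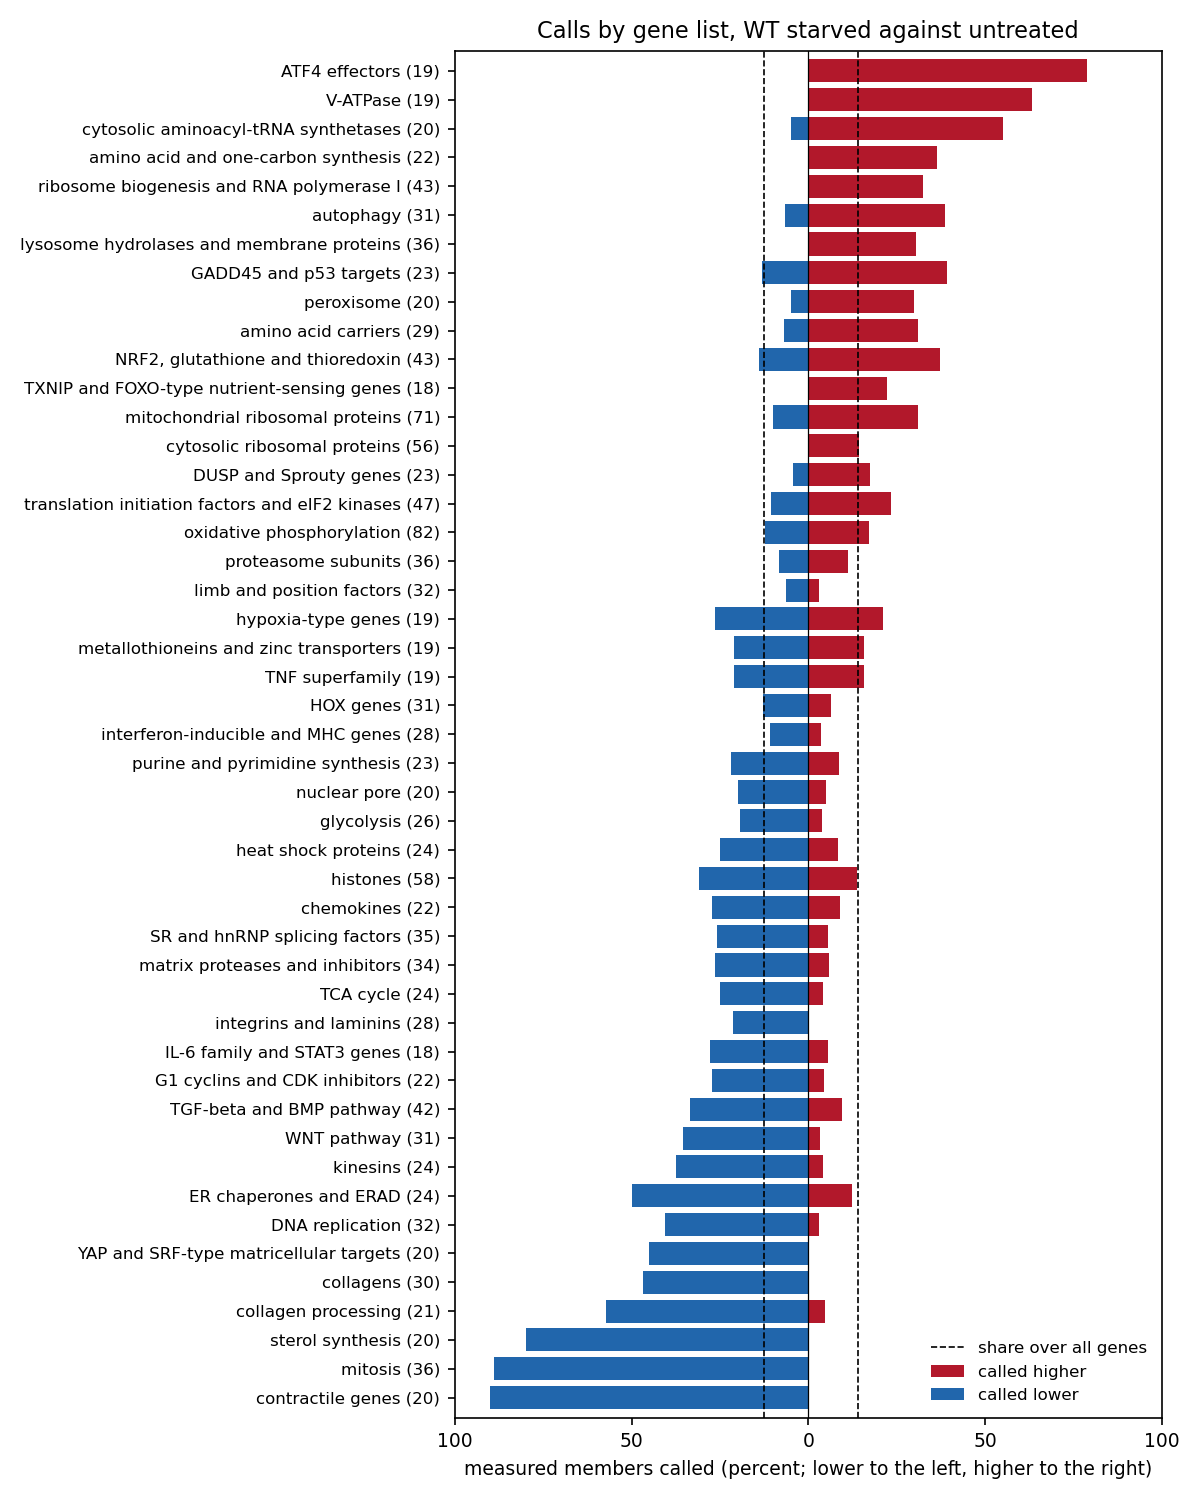
Percent of measured members called lower (blue, to the left) and higher (red, to the right) by limma for every list with at least 18 measured genes, whose number stands in brackets. Dashed lines mark 12.4% lower and 14.0% higher over all 11906 rows. Contractile, mitosis and sterol lists lie at the bottom, ATF4 effectors, V-ATPase and tRNA synthetases at the top.

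The response of *Btg1*-/- MEFs over the same 11906 rows gave 1975 calls, and 1748 genes were called in the same direction in both genotypes, 55.7% of the WT calls and 88.5% of the *Btg1*-/- calls. A call in 1 genotype alone does not show a difference. The difference in response itself was called by limma for 0 of 12691 rows, with 815 at an unadjusted p under 0.05. List medians are therefore given side by side: 1.16 in WT and 1.20 in *Btg1*-/- cells for ATF4 effectors, -1.50 and -1.43 for mitosis, -1.48 and -1.64 for sterol synthesis, 0.75 and 0.42 for the V-ATPase, and -0.75 and -0.37 for collagen processing. Single genes could lie farther apart than such medians: *Ddit3* differed by 4.27 in WT and 2.95 in *Btg1*-/- cells (unadjusted p of the difference 0.00461, adjusted p = 0.65 from limma), and *Atf3* by 4.69 and 4.0 (adjusted p = 0.925 from limma). These medians do not show that the responses were alike.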

How the data were processed

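Illumina MouseRef-8 v2 arrays were read out with GenomeStudio 2011.1 (submitters' processing notes) and normalised by RMA in ArrayStar, per the methods. Deposited log2 values, 1 per named row and array, were used as the authors gave them (18132 rows, 8 arrays). A second deposited table holds the authors' group means, which matched means computed from the arrays within 5.0e-06 over 18109 shared row names, and their own fold ratios, which were not used. Groups came from the sample labels. Row names were matched to current symbols through the RefSeq gene table of GRCm38.p6.

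A model of 4 group means was fitted with limma 3.58.1 (R 4.3.3) to 12691 rows with a mean of 3 or more, the background level of the methods, in at least 1 of the 4 groups. It used an intensity trend and had 4 residual and 5.48 prior degrees of freedom. P-values were adjusted over all 12691 rows (Benjamini-Hochberg). Lists were described by counts and medians, and no set test was run. The members, lists and tests were chosen with earlier results of these data known. Named genes were the 12 of largest change in each direction, up to 4 called in each direction and up to 2 of the highest level not called from each list, and *Btg1*, *Btg2*, *Atf4*, *Prmt1* and *Glul*. V-ATPase genes and those of the ATF4 lists were also given beyond that rule, after their values were seen. A few genes that the rule names are not reported here. On simulated data with 50 genes changed at each size, limma recovered 1 at a log2 change of 0.5, 17 at 1, 30 at 2 and 40 at 3, with 5 false calls among 12691 genes. A far larger share, 26.4% of rows, was called in the real data. The cut-off that the adjustment sets depends on that share, so the simulated recovery does not give that of the real comparison. With 2 arrays a group, an exact permutation test of a single gene could not pass the threshold. The number of arrays limits the precision. Alternatives covered the replicate block, the samples fitted, the prior trend, the test, the filter, the normalisation, the threshold and each WT array left out.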

Additional observations from a re-analysis of the deposited data

Results flagged for a closer look

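*LOC100044702* differed in the sign of its change between the 2 genotypes. Its starved minus untreated difference was -3.63 on the log2 scale in WT and 0.48 in *Btg1*-/- cells, so the fitted responses differed by 4.11. The starved WT mean, 2.57, is below the level of 3, so the WT change is measured only as at least 9.18-fold lower and these differences rest on a value below background. The test of that difference gave an unadjusted p of 2.32e-05 and, over 12691 rows, an adjusted p of 0.232 from limma, which did not pass the threshold.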

How the results depend on the processing

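The counts of 1667 genes higher and 1471 lower stayed within 1.5 times with no filter, 2 other filters, no intensity trend, quantile normalisation and the fit to WT arrays only. Without the trend, 1156 of the higher and 1020 of the lower calls were shared, and 67 of 475 named genes and list members lost the call. With the replicate number as a block, 1892 genes were higher and 1736 lower, of which 1649 and 1456 were shared with the calls above. The labels do not say what the number shares, WT arrays of 1 number were alike in *Eif2s3y* and *Xist*, deviations of same-numbered arrays correlated at 0.124 in WT and 0.247 in *Btg1*-/- cells, and the block ended 2 and added 21 calls among those 475. Of genes in the text, *Tyms* lost its call and *Ndc80*, *H3f3b* and *Ccn2* gained one. Median centring gave 1558 and 1554. A t-test per gene, which has 2 residual degrees of freedom, gave 0 higher and 1 lower after adjustment and 1756 and 1528 at an unadjusted p under 0.05. A test against a log2 change of 0.5 gave 398 and 478, an adjusted p under 0.01 gave 966 and 907, and a minimum log2 change of 1 gave 643 and 710. Without 1 of the WT arrays there were 932 to 1128 higher and 897 to 1077 lower, fewest without starved replicate 1. Fewer arrays were fitted in each case. Genes past the FC numbered 814 and 923 at an FC of 2, 135 and 187 at an FC of 3 for every pair of arrays, and 261 to 272 and 337 to 393 without 1 of the WT arrays. No gene named as called changed direction under any alternative run. Genes near the level of 3 have the widest errors, and a dim gene that was not called may still have changed.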
